A study of Mus musculus with 4 samples.

Results

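Integrins are cell-surface receptors made of 1 alpha and 1 beta chain, and the set described here holds the mouse genes of those chains together with genes of proteins that switch integrins on and of proteins they bind. It counts 36 genes, chosen by name: 18 alpha subunits, 8 beta subunits, 7 activators (talins, kindlins and the RAP1 GTPases) and 3 cell-surface ligands. All 36 were found among the 50600 genes of the files. They were measured in 4 RNA sequencing libraries of primary T cells from C57BL/6NJ mice, which the labels number as biological replicates 1 to 4 of a single cell type. The labels name no treatment, genotype or second group, give the age as unknown and the sex as not collected, and link a protocol for differentiating CD4 T cells. They call the assay total RNA sequencing, although the linked library protocol is named for polyA RNA. The file headers describe bulk activated cells at 72 h, with sample names that begin mmTh0. The question addressed was therefore which integrin genes these cells expressed, at what level, and how far the libraries differed.

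Integrins on a resting T cell are bent and bind weakly. Signals from the T-cell receptor or a chemokine receptor load RAP1 with GTP, which brings talin to the tail of the beta chain, where kindlin joins it, and the receptor then extends and binds its ligand. LFA-1, the chain pair encoded by Itgal and Itgb2, binds ICAM proteins and holds the T cell to antigen-presenting cells and vessel walls. VLA-4, encoded by Itga4 and Itgb1, binds VCAM-1 and fibronectin, and the pairing of Itga4 with Itgb7 binds MAdCAM-1 in the gut.

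Library totals ran from 49613182 to 94222415 counts, and no library was a copy of another, since counts of each pair differed by more than sampling noise (chi-square over its degrees of freedom, 20.5 to 45.3). All 10 T-cell markers were above 1 TPM throughout, from the receptor constant gene Trac at 1768 ± 84.7 TPM to the signalling chain gene Cd247 at 107 ± 8.58 TPM (SD, n = 4). TPM is the count divided by gene length and scaled to the library. The labels give all libraries the same donor identifier, whereas the X-inactivation RNA Xist had 332, 150.1, 0.877 and 0.392 TPM (replicates 1 to 4) and Ddx3y, which is Y-linked, had 3, 7, 3546 and 6620 counts. The libraries therefore did not all come from animals of the same sex. Since the labels do not show whether cells were cultured separately, the spread between libraries may be partly technical. It also takes in sex, for which no fit here held a term, and p-values measure that spread only.

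The start regions of a few genes are shown for the highest member of each role that the RefSeq promoter table held, and for Itgam, a myeloid alpha subunit that was near 0 here. The table matched 24 of the 36 genes. Each sequence is the 250 bases before the RefSeq start on the gene's own strand, build GRCm38.p6 (the mm10 assembly). Capitals mark GGAA, the core of ETS factor sites, TGTGGT, the core of RUNX factor sites, and GGGCGG, the GC box, on either strand.
Itga4, chr2:79255176-79255425, plus strand: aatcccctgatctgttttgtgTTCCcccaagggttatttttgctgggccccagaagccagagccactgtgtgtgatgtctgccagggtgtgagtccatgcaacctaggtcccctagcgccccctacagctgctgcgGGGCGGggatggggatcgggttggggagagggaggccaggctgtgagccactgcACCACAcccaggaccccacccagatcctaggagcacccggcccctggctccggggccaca
Itgb1, chr8:128685404-128685653, plus strand: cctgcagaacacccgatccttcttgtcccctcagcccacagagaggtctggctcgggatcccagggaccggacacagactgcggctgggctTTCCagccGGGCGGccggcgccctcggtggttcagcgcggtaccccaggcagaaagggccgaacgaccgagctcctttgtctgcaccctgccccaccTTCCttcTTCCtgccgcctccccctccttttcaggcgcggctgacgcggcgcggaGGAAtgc
Fermt3, chr19:7019470-7019719, minus strand: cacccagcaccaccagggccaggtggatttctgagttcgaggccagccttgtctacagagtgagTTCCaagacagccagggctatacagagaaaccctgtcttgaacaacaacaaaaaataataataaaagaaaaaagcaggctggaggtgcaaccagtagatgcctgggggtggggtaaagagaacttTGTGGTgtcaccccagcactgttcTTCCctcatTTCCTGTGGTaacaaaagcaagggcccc
Icam1, chr9:21015690-21015939, plus strand: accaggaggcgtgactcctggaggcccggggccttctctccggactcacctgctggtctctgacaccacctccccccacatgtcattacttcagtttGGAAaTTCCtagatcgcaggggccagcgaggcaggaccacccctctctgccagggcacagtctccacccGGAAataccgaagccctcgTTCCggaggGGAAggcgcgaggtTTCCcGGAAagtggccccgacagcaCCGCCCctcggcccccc
Itgam, chr7:128062390-128062639, plus strand: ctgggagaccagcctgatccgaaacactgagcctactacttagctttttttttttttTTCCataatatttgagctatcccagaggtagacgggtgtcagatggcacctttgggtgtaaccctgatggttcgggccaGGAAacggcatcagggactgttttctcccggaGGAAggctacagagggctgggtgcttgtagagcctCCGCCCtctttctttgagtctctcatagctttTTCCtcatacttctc

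Fermt3 held 2 RUNX cores, the second directly beside an ETS core, and Itga4 held 1, while Itgb1, Icam1 and Itgam held none in this window. Of 32851 start regions of the same length in the table, 14.0% held a RUNX core, 93.4% an ETS core and 32.7% a GC box. Icam1 had 7 ETS cores, Itgb1 and Itgam 4 each, Fermt3 3 and Itga4 1. The Icam1 start in the authors' annotation lay 45 bases from the RefSeq start, and the other 4 coincided.

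Of the 36 genes, 21 reached 1 TPM in every library and are called detected here, beside 49.4% of 21764 protein-coding genes. They were 8 of 18 alpha subunits, 5 of 8 beta subunits, 6 of 7 activators and 2 of 3 ligands. A mean of 100 TPM or more was reached by 6 genes, namely Itgal, Itgb1, Itgb2, Tln1, Fermt3 and Rap1b, and a mean from 10 to 100 TPM by 10. Itgal exceeded 99.0% of protein-coding genes in mean TPM, Fermt3 98.7%, Itgb2 98.6%, Rap1b 98.5%, Itgb1 97.8% and Tln1 96.4%.

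**Figure D1:**
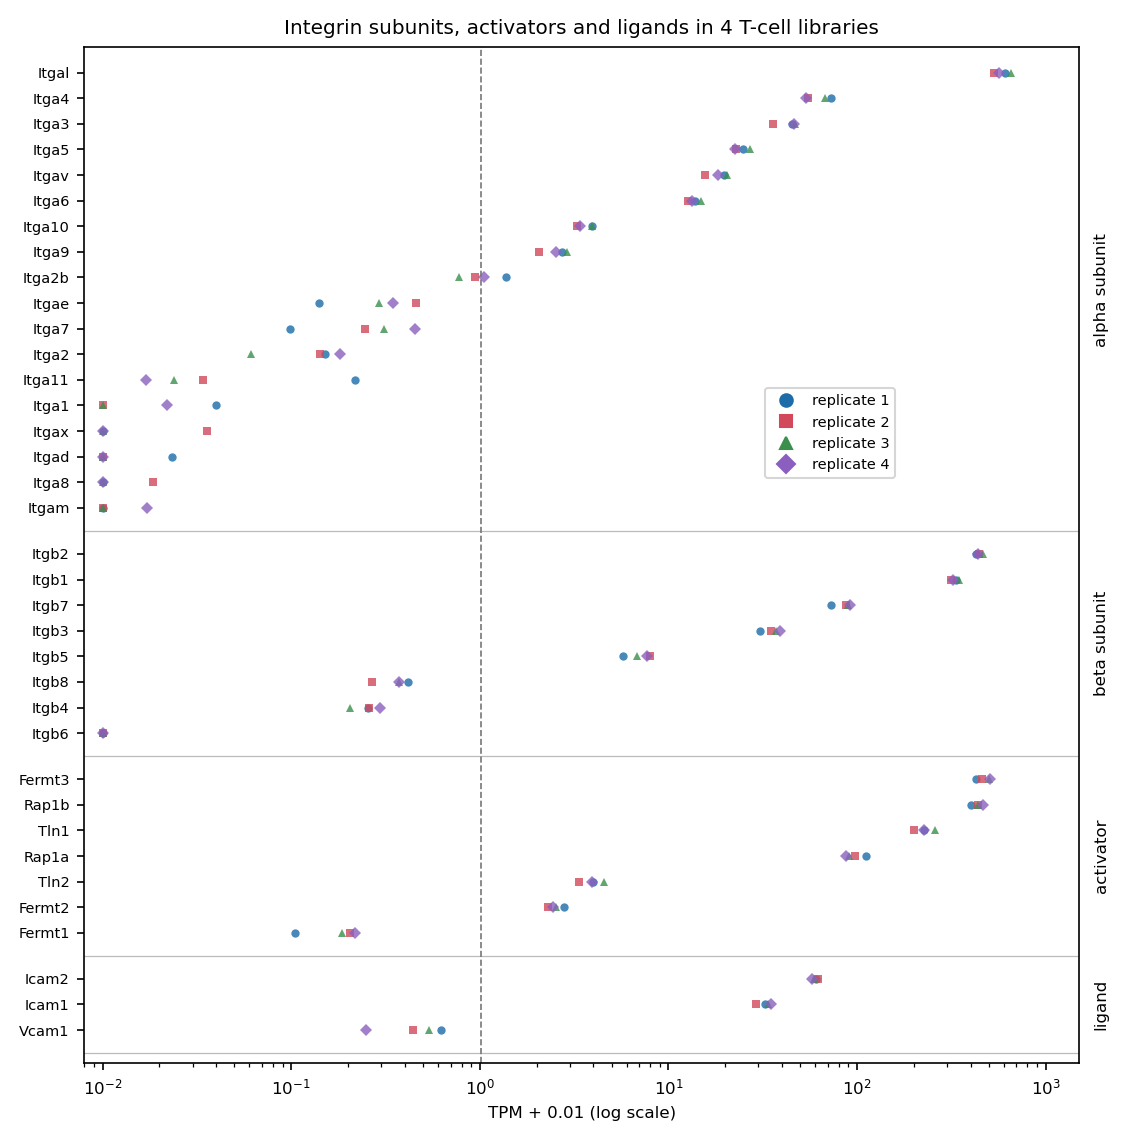
Level of each of the 36 genes in the 4 libraries, as TPM + 0.01 on a log axis, with genes ordered by mean within each role and the dashed line at 1 TPM. Each point is a library. Itgal stands alone at the top of the alpha subunits, while 10 of 18 alpha subunits do not stay above the line in all libraries.

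Among the alpha subunits, Itgal, the alpha chain of LFA-1 (ENSMUSG00000030830, mm10, chromosome 7, 127296260 to 127335138, plus strand), dominated. Replicates 1 to 4 held 609, 534, 658 and 563 TPM, a mean of 591 ± 54.4 (SD, n = 4). It made up 76.7 to 78.2% of the summed TPM of the 18 alpha genes in each library. Even its lowest library lay far above the highest library of any other alpha subunit.

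Itga4, the alpha chain of VLA-4 and of the gut-homing integrin (mm10, chromosome 2, 79255426 to 79333123, plus strand), came next with 72.6, 55.0, 67.6 and 53.4 TPM, a mean of 62.2 ± 9.41. Replicates 1 and 3 were high and replicates 2 and 4 low, and its coefficient of variation of 15.1% was the largest of the detected genes. Itga3, which pairs with Itgb1 in laminin receptors, stood at 45.0, 35.6, 46.9 and 46.1 TPM, with replicate 2 alone below the rest. Itga5, the alpha chain of the fibronectin receptor, stood at 24.9, 22.8, 26.9 and 22.5 TPM.

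Itgav, whose product pairs with 5 different beta chains in the list of 24 known heterodimers used here and binds RGD motifs in matrix proteins, stood at 19.6, 15.7, 20.5 and 18.3 TPM. Itga6, a laminin receptor chain, stood at 13.8, 12.7, 14.9 and 13.3 TPM. These 6 were the alpha subunits above 10 TPM. Itga10, a collagen receptor chain known from cartilage, averaged 3.63 ± 0.347 TPM, with 33.5% of its exonic bases shared with the gene Gm42957 on the same strand. Itga9, which binds tenascin and osteopontin, averaged 2.55 ± 0.361 TPM. Each of the 8 was higher than the next in 4 of 4 libraries, and none of these neighbours overlapped in range. The order of Itga5, Itgav and Itga6 depended on the gene length used: with the longest transcript in place of all exons they averaged 18.0 ± 1.58, 20.6 ± 2.37 and 20.9 ± 1.55 TPM.

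Alpha subunits of other cells were low. Itgam, Itgax and Itgad, the myeloid partners of Itgb2, lie on chromosome 7 as Itgal does, and are separated from one another by 11055 and 3718 bases. Itgam had 1 count in replicate 4 and none elsewhere, Itgax 2 counts in replicate 2 and none elsewhere, and Itgad 1 count in replicate 1 and none elsewhere. In Itgam, 68.7% of the exonic bases also belong to the gene Gm49368 on the same strand, where reads of either could be left uncounted, and Gm49368 had 0 counts in all libraries. At 3 counts the depth would allow up to 0.0429 TPM for Itgam, 0.0449 for Itgax and 0.0478 for Itgad, which covers counting error only. The Itgam value uses all its exonic bases, so it would be too low if reads over the shared 68.7% were left uncounted.

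Itgae, the CD103 chain that binds E-cadherin on epithelium, stood at 0.130, 0.446, 0.282 and 0.338 TPM from 10, 33, 18 and 43 counts. Itga2b, the platelet alpha chain, stood at 1.37, 0.931, 0.764 and 1.04 TPM, which reached 1 TPM in replicates 1 and 4 but not in the others. No gene of the platelet list reached 1 TPM, the highest being Gp1bb at 0.0178 ± 0.0206 TPM. Of its 7 genes, 5 had 0 counts in all libraries, Pf4 among them, and its summed TPM ran from 0 to 0.0785. Itga7, a laminin receptor chain of muscle, stood at 0.0884, 0.237, 0.302 and 0.440 TPM, with replicate 1 lowest and replicate 4 highest. The others were Itga1 and Itga2, which bind collagen, with at most 3 and 20 counts in a library, Itga8 with 1 count in all, and Itga11 with 18, 2, 1 and 1 counts.

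Among the beta subunits, Itgb2, the beta chain shared by the leukocyte integrins (mm10, chromosome 10, 77530252 to 77565708, plus strand), was highest with 429, 440.4, 468 and 439.7 TPM, a mean of 444 ± 16.7. Itgb1, the chain with the most alpha partners (mm10, chromosome 8, 128685654 to 128733200, plus strand), followed with 336, 313, 345 and 322 TPM, a mean of 329 ± 14.0. They took 49.2 ± 0.425% and 36.5 ± 1.33% of the summed TPM of the 8 beta genes. Itgb2 exceeded Itgb1 in 4 of 4 libraries, by 0.43 ± 0.06 on the log2(TPM + 1) scale.

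Itgb7, the beta chain of the gut-homing integrin, stood at 72.6, 87.5, 90.0 and 91.8 TPM, with replicate 1 below the other libraries. Itgb3, which forms the vitronectin receptor with Itgav and the platelet receptor with Itga2b, stood at 30.6, 34.9, 37.2 and 39.0 TPM. Itgb5, another partner of Itgav, stood at 5.73, 8.01, 6.83 and 7.68 TPM. The 5 detected beta genes did not overlap in range: on the log2(TPM + 1) scale, Itgb7 minus Itgb1 was -1.94 ± 0.18 and Itgb3 minus Itgb5 was 2.18 ± 0.13. Itgb8, which binds latent TGF-beta with Itgav, averaged 0.347 ± 0.0629 TPM and Itgb4, an epithelial chain, 0.244 ± 0.0381 TPM. Itgb6, also epithelial, had 0 counts in every library, which allows up to 0.0303 TPM at 3 counts.

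Of 24 known alpha and beta pairings, 11 had both messages detected, 10 only the beta message and 3 only the alpha message. Of the 12 pairings with Itgb1, 7 had both. Message levels do not show which chains paired. Among the beta2 integrins, Itgb2 stood below the sum of its 4 alpha partners, which was 591 ± 54.4 TPM and came from Itgal but for traces. The log2 ratio of Itgb2 to this sum was -0.51, -0.28, -0.49 and -0.36 in replicates 1 to 4, a mean of -0.41 ± 0.11.

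Itgb1 stood above the sum of its 12 alpha partners, 169 ± 17.9 TPM, with log2 ratios of 0.87, 1.09, 0.91 and 1.01 and a mean of 0.97 ± 0.10. The sum includes Itga4, Itga6 and Itgav, whose products also pair with other beta chains. Both ratios depended on dividing by length: from counts alone they were -1.51 and -0.235, the second with its sign turned. For the beta7 integrins, Itgb7 was above Itga4 and Itgae together in 3 of 4 libraries, with log2 ratios of -0.003, 0.66, 0.41 and 0.77 and a mean of 0.46 ± 0.34. This order was lost with the longest transcript as length (mean log2 ratio -0.03 ± 0.34, above in 2 of 4 libraries), and from counts alone Itgb7 was below in all 4 (-1.89 ± 0.35). Its partner sum was almost wholly Itga4, since Itgae minus Itga4 was -5.60 ± 0.35 on the log2(TPM + 1) scale.

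**Figure D2:**
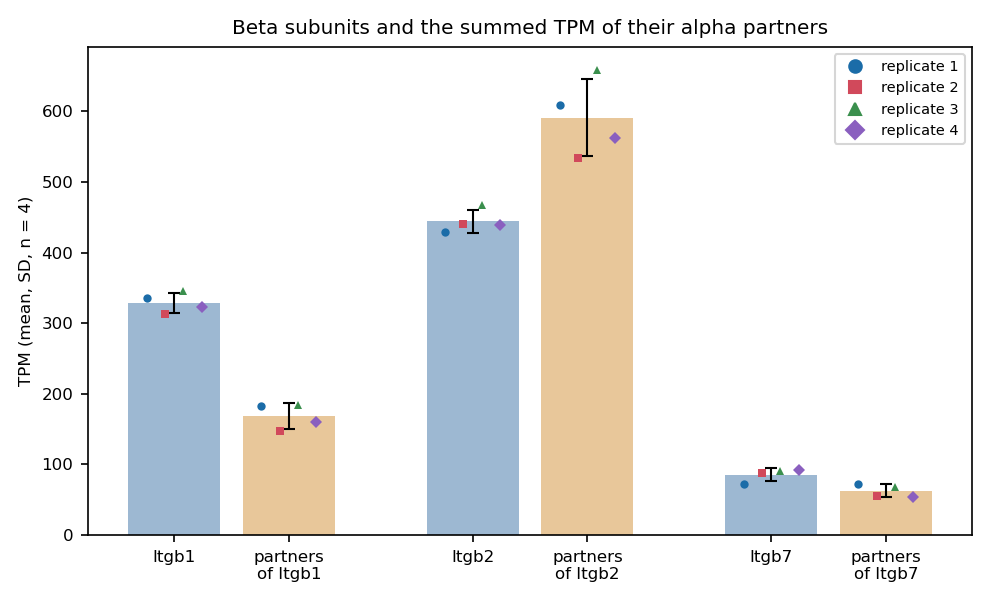
TPM of the beta subunits Itgb1, Itgb2 and Itgb7 (blue) beside the summed TPM of their listed alpha partners (tan), as means with SD over 4 libraries and a point per library. Itgb1 lies above its partners and Itgb2 below in each library, while Itgb7 and its partners meet in replicate 1.

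The activators were led by Fermt3, Rap1b and Tln1. Fermt3, the kindlin of blood cells, whose loss in humans causes leukocyte adhesion deficiency type III, stood at 429, 462, 499.8 and 506 TPM, with replicate 1 lowest (mm10, chromosome 19, 6998958 to 7019469, minus strand). Rap1b stood at 403, 436, 439 and 466 TPM, below Fermt3 in every library although their ranges overlapped. Tln1 stood at 226, 199, 259 and 228 TPM, with replicate 2 lowest and replicate 3 highest.

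The other paralogs were lower. Rap1a stood at 112, 97.7, 91.0 and 87.5 TPM, so that Rap1b exceeded it by 2.16 ± 0.24 on the log2(TPM + 1) scale in 4 of 4 libraries. Rap1a was highest and Rap1b lowest in replicate 1, with the opposite in replicate 4. Rap1a and Rap1b are close relatives, and reads that matched both equally could be left out of both counts. Tln2, the talin of muscle and brain, averaged 3.94 ± 0.483 TPM, a difference of 5.53 ± 0.02 between Tln1 and Tln2 that varied least of all pairs. Fermt2, the broadly expressed kindlin, averaged 2.51 ± 0.213 TPM, below Fermt3 by 7.08 ± 0.18 on the same scale. Fermt1, the kindlin of epithelium, averaged 0.169 ± 0.0514 TPM and was not detected.

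Of the ligands, Icam2, which lymphocytes and endothelium carry, stood at 60.3, 62.3, 59.0 and 57.9 TPM. Its coefficient of variation, 3.14%, was the smallest of the detected genes. Icam1, which activated cells carry, stood at 32.3, 29.0, 33.6 and 35.1 TPM, below Icam2 by 0.86 ± 0.16 on the log2(TPM + 1) scale in 4 of 4 libraries. Vcam1, the ligand of VLA-4 on endothelium and stroma, stood at 0.611, 0.433, 0.526 and 0.239 TPM, so replicate 4 was lowest. Its mean of 0.452 ± 0.160 TPM became 0.846 ± 0.299 TPM, 1.87 times as much, with the longest transcript as length. Genes of the fibroblast and endothelial list summed to 4.07 to 4.79 TPM, with 1 of 9 detected (Pdgfrb, 3.30 ± 0.191 TPM), and the endothelial gene Cdh5 and the collagen gene Col3a1 had 0 counts throughout. In bulk RNA, fewer cells of a type and less RNA per cell cannot be told apart, and the part of such cells in the Vcam1 counts was not tested.

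Lists of other blood cells were low beside these values. The B-cell list had 1 of 8 genes detected (Cd79b, 2.55 ± 0.850 TPM, with Fcrla at 0 counts in 3 libraries) and summed to 3.72 to 5.36 TPM. The macrophage and monocyte list had 2 of 8, led by Cd68 at 10.5 ± 0.880 TPM, with Lyz2 at 1 count in 1 library, and summed to 13.0 to 15.6 TPM. No gene of the neutrophil list was detected, and 7 of its 8 genes had 0 counts in all libraries, the exception being Mpo with 1 count. The dendritic cell list had 1 of 6, Zbtb46 at 3.35 ± 0.566 TPM, with Clec9a, Siglech and Cd209a at 0 counts. The natural killer list had 1 of 6, Eomes at 3.45 ± 1.08 TPM, with Klra8 at 0 counts. Their part in the levels of Itgb2, Fermt3 and the other genes shared by leukocytes was not tested.

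Within libraries, 14 gene pairs were compared on the log2(TPM + 1) scale with exact sign flips, two-sided. Each pair had the same sign in all 4 libraries and thus the smallest p that the exact test allows, 2 of 16 sign patterns. That p stayed the same after adjustment over the 14 pairs, and with 4 libraries no pair could pass 0.05. Of the pairs not given above, Itgal exceeded Itgam by 9.20 ± 0.13 and Itgb2 by 0.41 ± 0.11, and Itga4 exceeded Itga6 by 2.10 ± 0.16. Icam1 exceeded Vcam1 by 4.53 ± 0.23, and Itgae minus Itgb7 was -6.06 ± 0.10. Itgav minus Itga5 was -0.38 ± 0.10, and this turned to 0.18 when the longest transcript was used as the length. The pseudocount of 1 understates differences from genes near 0.

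Spread between libraries beyond that of genes of like abundance was tested with edgeR over all 13681 genes that passed a filter on low counts. Of these, 94 (0.687%) passed at an adjusted p under 0.05, with Xist among them, and the fit held no term for sex. The filter asked for a minimum level in every library, so a gene near 0 in some libraries, such as Ddx3y, was not tested. It kept 26 of the 36 genes, among them all 21 detected, and none of the 26 passed. DESeq2, run on the same filtered genes, marked 0 of the 26 and 43 of all genes tested as dispersion outliers. At an unadjusted p under 0.05 in edgeR there was 1 of the 26 and 959 of all genes tested. That gene was Itga7, which was 4.98 times as high in replicate 4 as in replicate 1 (edgeR adjusted p = 0.314). Its edgeR adjusted p ran from 0.00026 to 1.0 over the alternatives, the highest without replicate 1. With a common dispersion for all genes, Itga7 and Vcam1 passed (edgeR adjusted p = 0.00026 and 0.0211).

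**Figure D3:**
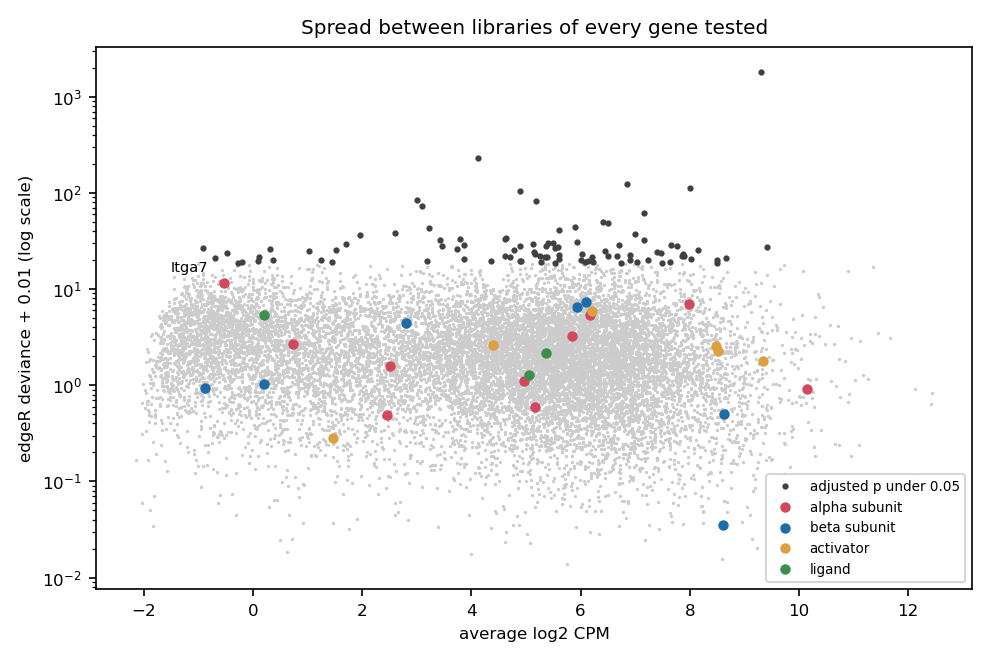
Spread between the 4 libraries for each of 13681 genes, as the edgeR deviance + 0.01 on a log axis against average log2 CPM. Coloured points are the 26 genes of the set that were tested and dark points the 94 genes past an adjusted p of 0.05. The highest coloured point is Itga7, below the dark points.

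The detected genes were close between libraries. Their coefficients of variation ran from 3.14 to 15.1%, with a median of 9.57%, beside a median of 7.94% over 10754 detected protein-coding genes. All 8 detected alpha subunits were lowest in replicate 2 or 4 (6 and 2 genes) and highest in replicate 1 or 3 (2 and 6 genes), whereas 4 of 5 beta subunits were lowest in replicate 1. The 6 activators were lowest in replicates 1, 2 and 4 (2, 3 and 1 genes), and the 2 ligands in replicates 2 and 4 (1 each). No test was made of a difference between roles. Over all detected protein-coding genes, 43.0% were lowest in replicate 2, 19.6% in replicate 4, 20.1% in replicate 1 and 17.3% in replicate 3, and 42.4% were highest in replicate 3. The shares among the 21 genes were 11 lowest in replicate 2, 6 in replicate 1, 4 in replicate 4 and 0 in replicate 3, with 10 highest in replicate 3.

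On the log2(TPM + 1) scale the median deviation of the detected alpha subunits from their own means was 0.07, -0.15, 0.14 and -0.05 in replicates 1 to 4. For the detected beta subunits it was -0.20, -0.01, 0.08 and 0.11, and for all detected protein-coding genes 0.02, -0.05, 0.05 and -0.02. Itgb3, Itgb5 and Itgb7 were low together in replicate 1, by 0.20, 0.25 and 0.23 below their means, and Itgb1 and Itgb2 were not far from theirs there (0.03 and -0.05). Tln1 and Tln2 moved together with deviations of -0.19 and -0.18 in replicate 2 and 0.19 and 0.17 in replicate 3. None of these genes passed the edgeR test.

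**Figure D4:**
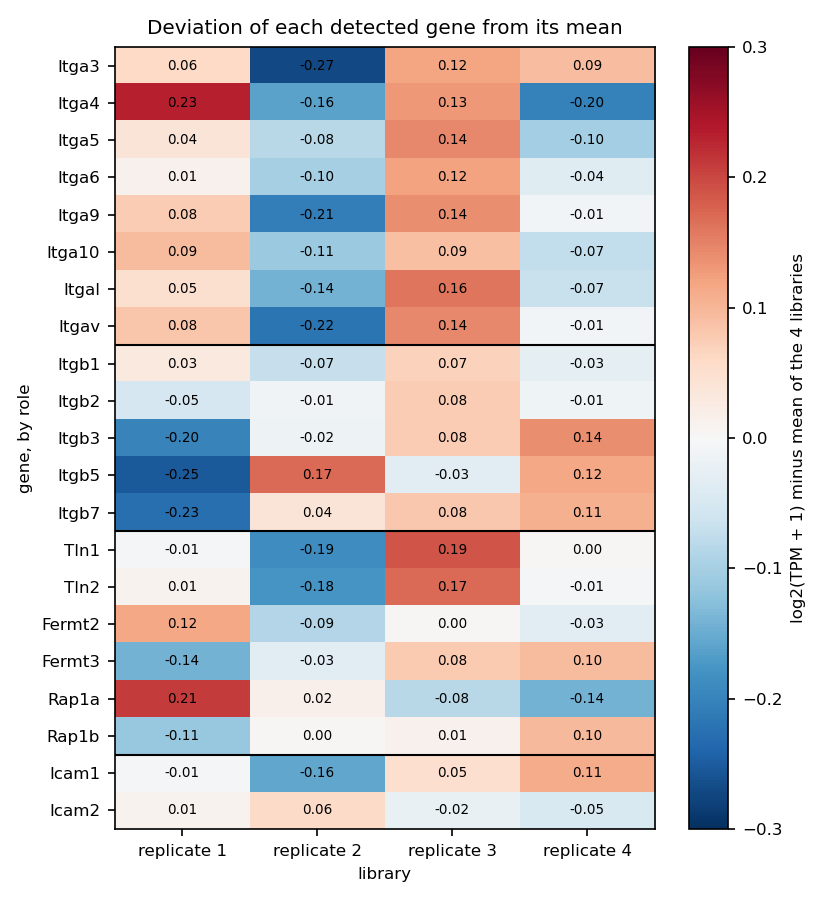
Deviation of log2(TPM + 1) from the mean of the 4 libraries for the 21 detected genes, ordered by role, with blue below and red above the mean. The alpha subunits share a negative sign in replicate 2 and a positive sign in replicate 3, and Itgb3, Itgb5 and Itgb7 are lowest in replicate 1.

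Gene length moved with these deviations. The median exonic length was 7130 bases for the detected alpha subunits, 3362 for the beta subunits, 3315 for the activators and 3132 for the ligands. Over the 10754 detected protein-coding genes, the Spearman correlation of length with deviation was 0.24, -0.52, 0.53 and -0.31 in replicates 1 to 4, and over the 21 genes it was 0.36, -0.81, 0.79 and -0.12. These are descriptions across genes of the same libraries, and genes are not independent replicates. With a trend on length removed from each library, none of the 26 genes passed in edgeR, and 4 had an unadjusted p under 0.05 (Itga7, Itgb3, Rap1a and Itgb7, adjusted p = 0.333, 0.483, 0.662 and 0.713). The part of length in these deviations was not otherwise tested.

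**Figure D5:**
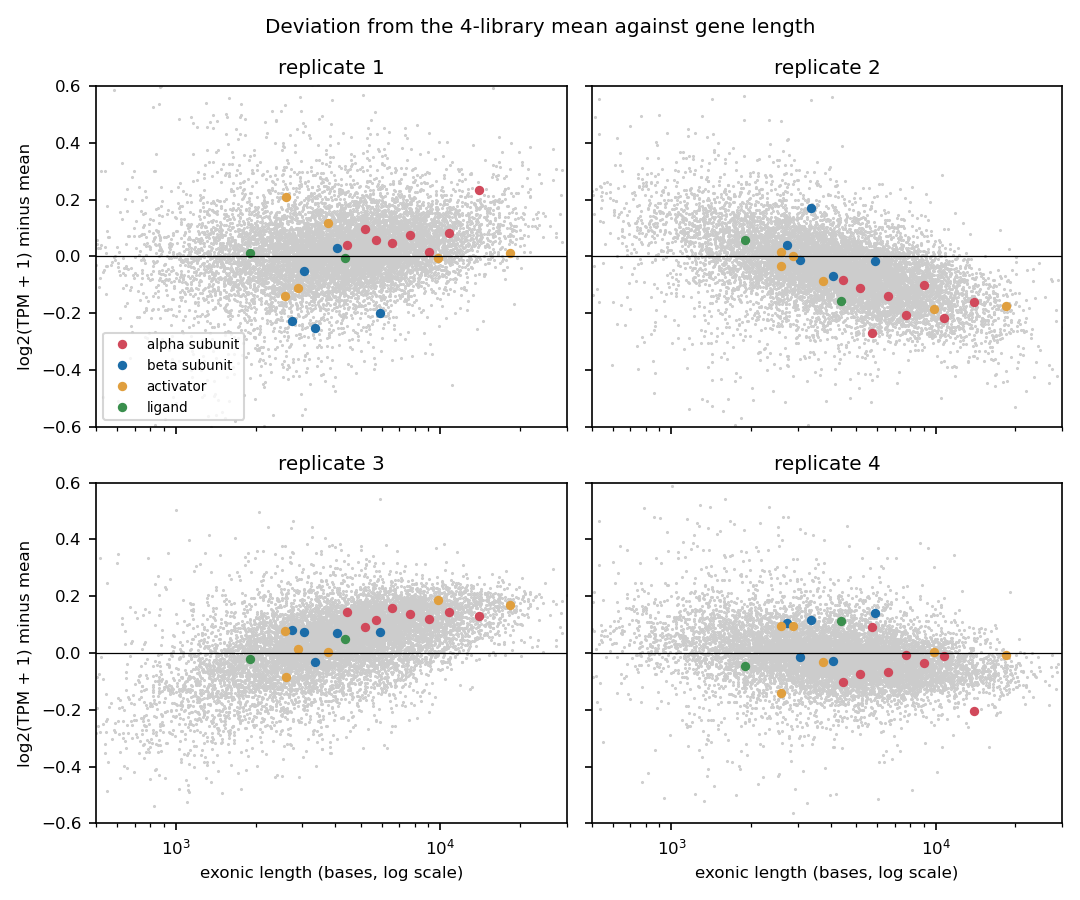
Deviation of log2(TPM + 1) from the 4-library mean against exonic length (log axis), 1 panel per library, with detected protein-coding genes in grey and the 21 detected genes of the set coloured by role. The vertical axis is limited to 0.6 on either side. Long genes lie below 0 in replicate 2 and above 0 in replicate 3, and the alpha subunits lie among them.

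Genes around the integrins were mostly expressed as well. Of 70 genes in 5 lists of the pathway, 52 were detected, beside 49.4% of protein-coding genes, and 0 of the 60 tested passed the edgeR test of spread, beside 0.687% of all genes tested. At an unadjusted p under 0.05 in edgeR there were 2 of the 60, Cd47 and Fn1, both named for this p, and DESeq2 marked 0 of the 60 as dispersion outliers. Of 14 genes listed for signalling from receptor to integrin, whether they raise or lower it, 13 were detected. They were led by Cytip (347 ± 14.4 TPM), which binds the cytohesin that regulates LFA-1, the Hippo kinase gene Stk4 (236 ± 20.1 TPM) and Rassf5 (219.8 ± 9.42 TPM), whose product RAPL binds RAP1. Rasgrp2, a RAP1 exchange factor, was the exception at 0.405 ± 0.0434 TPM.

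Of 12 genes listed under integrin inactivation, not all of which need hold integrins inactive themselves, 9 were detected. The highest were Flna, whose product competes with talin for beta tails (248 ± 28.6 TPM), Sipa1, which turns RAP1 off (157 ± 14.2 TPM), and Dok1 (47.7 ± 1.57 TPM), another competitor of talin. Rap1gap2 lay below 1 TPM in all libraries, at 0.338 ± 0.0976 TPM.

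Of 18 adhesion-complex genes, 14 were detected, led by the actin cross-linker gene Actn4 (359.6 ± 21.1 TPM), the parvin of blood cells Parvg (247 ± 7.05 TPM) and Actn1 (147 ± 12.3 TPM). The parvin paralog Parvb stood at 0.316 ± 0.0507 TPM, Parva had 0 counts, and the tensin gene Tns3 stood at 0.169 ± 0.0727 TPM. Of 8 genes for tetraspanins and CD47, 7 were detected, with Cd53 at 849.7 ± 41.8 TPM, Cd82 at 514 ± 18.5 TPM and Cd81 at 420.3 ± 13.8 TPM, while Cd63 stood at 0.541 ± 0.138 TPM.

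Of 18 further integrin ligands, 9 were detected and 8 lay below 1 TPM in every library. The highest were Tgfb1, whose latent form binds integrins with the Itgav chain (191 ± 11.9 TPM), the laminin chain gene Lamc1 (17.0 ± 2.05 TPM) and Icam5 (9.28 ± 1.07 TPM), a neighbour of Icam1 on chromosome 9. Median mean levels were 91.6 TPM for the signalling list, 22.1 for the inactivation list, 36.9 for the adhesion complex, 114 for tetraspanins and CD47, and 1.36 for the ligands.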

How the data were processed

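Each library has its own deposited table of whole, unnormalized counts for genes. These are, per the file headers, counts that the authors made from reverse-stranded read pairs with both ends aligned with featureCounts 1.4.6-p4 on exons of GENCODE mouse release 13. The headers' command sets no option for multimapping or multi-gene reads. The build is mm10 per the labels, and the aligner's version is not given in the sources used here.

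Symbols came from GENCODE mouse release 21 (50376 of 50600 genes matched). TPM was computed from counts and the exonic lengths in the files. Detection meant 1 TPM in every library. Spread between libraries was tested in edgeR 4.0.16 (R 4.3.3) with TMM factors, filterByExpr, a dispersion trend and a fit of the intercept alone, each deviance being set against a chi-square on 3 degrees of freedom with Benjamini-Hochberg adjustment over all genes. The test was tested on simulated data. The simulation used the test's own fitted dispersions, so it cannot show whether they fit these libraries. Pairs were tested by exact sign flips over 16 patterns. DESeq2 1.42.0, matplotlib 3.10.9, scipy 1.17.1, pandas 2.3.3, numpy 2.4.6 and Python 3.11.15 were also used. The genes named are all 36 members, and of each pathway list its 3 highest genes, any gene that passed the edgeR test and, where there were at most 3, those below 1 TPM throughout; of each marker list, its highest and lowest genes. Promoters and other marker genes were chosen after values were seen. The members and lists were chosen with earlier results of these data known.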

Additional observations from a re-analysis of the deposited data

Results flagged for a closer look

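Among 67 sets of 4 library values, 7 held a library far from the other 3, with a gap to its neighbour, as a share of the whole range, above Dixon's 95% critical value. Chance flags about 1 in 20 sets of normally distributed values. A set with 0 counts in all libraries but 1 is flagged by construction, so the number flagged cannot be set against that rate. Of the 7, 2 were detected genes. Itga3 was low in replicate 2, at 35.6 TPM, with the other libraries at 45.0 to 46.9 TPM, and the tetraspanin gene Cd82 was high in replicate 2, at 542 TPM, with the others at 504 to 506 TPM. The remaining 5 rest on few counts. Itga11 reached 0.209 TPM in replicate 1 from 18 counts, Itgax 0.0258 TPM in replicate 2 from 2 counts, Itgad 0.0132 TPM in replicate 1, Itga8 0.0084 TPM in replicate 2 and Itgam 0.007165 TPM in replicate 4, the last 3 from 1 count each.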

How the results depend on the processing

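The 21 detected genes of the set became 22 at a TPM threshold of 0.5, 17 at 5 and 27 at a count of at least 10. Of all protein-coding genes, 51.8%, 42.7% and 54.9% passed these thresholds in turn. The number stayed at 21 with TPM over protein-coding genes, with longest-transcript lengths and without each replicate. Beside it, 49.1 to 49.7% of protein-coding genes were detected in those settings. The 52 detected pathway genes ran from 42 at a TPM threshold of 5 to 61 at a count of at least 10, beside the same shares of protein-coding genes. No gene of the set passed the edgeR test under any alternative except a common dispersion, where 2 did. That setting called 617 of all genes, against 94 with a trended dispersion. With the trend, 46, 38, 87 and 46 were called without replicates 1, 2, 3 and 4 in turn. It was 67 without the filter on low counts and 104 with the length trend removed. The cause was not tested. Of 98 recomputed pair differences, 97 kept their sign and 1 reversed: Itgav minus Itga5 was 0.18 with the longest transcript as length, an alternative added after seeing the data. The beta2 partner ratio was -1.51 on counts not divided by length and -0.70 with the longest transcript, the beta1 partner ratio -0.235 and 0.63, and the beta7 partner ratio, whose alternatives were added after seeing the data, -1.89 and -0.026. Without each replicate they ran from -0.45 to -0.38, from 0.93 to 1.00 and from 0.35 to 0.61. With the longest transcript, the mean TPM of 21 of the 36 genes moved by more than its SD. No paired analysis between groups was possible because the labels give a single group. The 15 genes of the set that were not detected rest on 0 to 158 counts a library, where the depth limits any comparison.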
